A study of Mus musculus with 4 samples.

Results

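Neurospheres are floating clusters of dividing neural stem and progenitor cells. Here they were grown from mouse embryonic stem cells, and the mature microRNAs (miRNAs) of secondary neurospheres (passage 1, day 12) were compared with those of primary neurospheres (passage 0, day 6) in the cells whose samples are titled NFIA OE, for overexpression of the transcription factor NFIA. The comparison rests on 2 of the 4 arrays of the series, 1 for each passage. The members are all 611 mouse miRNAs of the array, chosen by their name and by being non-control probes. A miRNA counted as detected when 1 of its probes had at least 50% of its spots well above background. By that rule 220 miRNAs were detected on the primary array and 207 on the secondary array, 188 of them on both. The other 2 arrays hold the cells titled control (CT) at the same passages and are used here only for comparison.

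At both passages NFIA-overexpressing and control cells grew together in 1 mixed culture and were purified from it by fluorescence-activated cell sorting. The labels contradict each other on which is which. Both samples titled NFIA OE have a source name that calls the cells WT, and both samples titled control have one that names the NFIA OE line. The text follows the titles. The strain, the stem cell line and the promoter that drives NFIA are not given in the sources used here. Days are counted from the embryoid body stage. Passage and days in culture cannot be told apart, because every primary sample is from day 6 and every secondary sample from day 12. With 1 array per group there is no replicate, so no difference below has a test or a p-value. The only error given is the standard error over repeated spots of a probe (spot SE), which is technical and does not cover the spread between cultures.

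A miRNA is cut from a hairpin precursor, and the bases called its seed pair with target messenger RNAs to lower their stability and translation. The let-7 family is scarce in pluripotent cells, where LIN28 blocks its maturation, and accumulates as cells differentiate. The miR-290 to miR-295 and miR-302 to miR-367 clusters mark pluripotent cells and early embryos, and miR-9 and its partner strand miR-9* are made in neural progenitors, where they help set the timing of differentiation. The miR-10 and miR-196 genes lie within the Hox clusters, whose genes pattern the body axis from head to tail. The large group of miRNAs at the imprinted Dlk1-Dio3 locus is expressed from the maternal chromosome.

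The sequences below are those on which the comparison turns, grouped by shared seed. The capitals mark the seed, bases 2 to 8 counted from the 5′ end. They are RefSeq mature sequences for GRCm38.p6, matched to the array's older names by their current strand names.

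The first group, all higher on the secondary array, has the let-7 seed.
let-7b: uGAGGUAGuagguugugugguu
let-7c: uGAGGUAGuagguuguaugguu
let-7d: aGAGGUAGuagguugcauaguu
miR-98: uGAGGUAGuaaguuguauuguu
The second group, all lower on the secondary array, holds miRNAs of the pluripotency clusters on chromosomes 7 and 3, which have 1 seed in common.
miR-291a-3p: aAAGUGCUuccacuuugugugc
miR-294: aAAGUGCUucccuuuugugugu
miR-295: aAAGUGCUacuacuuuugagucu
miR-302b: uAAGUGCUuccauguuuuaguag
miR-302d: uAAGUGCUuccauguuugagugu
The third group was detected on the secondary array and not on the primary array, and its 4 members form 2 seed pairs.
miR-10a: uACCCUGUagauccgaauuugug
miR-10b: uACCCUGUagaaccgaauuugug
miR-196a: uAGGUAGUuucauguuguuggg
miR-196b: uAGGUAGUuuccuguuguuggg
The last group holds the remaining miRNAs with the highest differences, miR-210 and the strands of the miR-9 hairpin.
miR-210: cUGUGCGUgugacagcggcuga
miR-9: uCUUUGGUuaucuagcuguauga
miR-9*: aUAAAGCUagauaaccgaaagu

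Levels are given as scaled signal. On each array the spot intensities of a probe were averaged and divided so that the 75th percentile over the 252 mouse probes detected on all 4 arrays equals 100. These percentiles were 261 intensity units on the primary and 369 on the secondary array titled NFIA OE, against 167 and 443 on those titled control. The median negative control was between 2.92 and 3.72 units. Saturated spots numbered 0, and 0 of the 39 viral miRNAs on the array were detected on any of the 4. All arrays lay on 1 slide, 1 group at each position, so position and group cannot be told apart. Levels of different miRNAs are not compared, because probes differ in how strongly they bind.

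Most of the 188 miRNAs measured at both passages differed by less than 2-fold, and more were lower than higher on the secondary array. The median difference, secondary minus primary, was -0.39 on the log2 scale (quartiles -0.78 and -0.04, SD 0.93 across miRNAs), with 44 above 0 and 144 below. At least 2-fold differences were found for 10 higher miRNAs (5.32% of those measured) and 32 lower (17%), together 22.3%. Measured from the median difference instead of from 0, 18 were higher (9.57%) and 14 lower (7.45%). At 1.5-fold, 19 were higher (10.1%) and 65 lower (34.6%), together 44.7%. At 4-fold, 3 were higher (1.6%) and 7 lower (3.72%). The balance between directions depended on the scaling. Of all mouse probes, 21.9% were detected on the primary and 20.3% on the secondary array, so the 75th percentile over all of them has undetected probes above it. With that percentile, the median difference moved up by 0.62 to 0.23, and the split became 26 higher and 11 lower. It was 17 and 20 with median centring, 23 and 18 with quantile normalization, 23 and 11 with no scaling and 29 and 10 in the authors' deposited values, where the median difference was 0.27. Under each of the 12 alternative processings that measured them, all 42 miRNAs past 2-fold kept their sign. The other scalings, quantile normalization and the authors' deposited values moved the median difference up, by 0.13 to 0.66. Keeping sign or size is thus a weaker check for the higher miRNAs than for the lower. Of the 42, 16 stayed past 2-fold in every alternative in which they were measured, 7 higher and 9 lower. The 7 are let-7b, let-7c, let-7d, let-7f, miR-9, miR-9* and miR-210. The 9 are 4 miRNAs of the miR-290 to miR-295 cluster (miR-291a-3p, miR-292-3p, miR-294 and miR-295), miR-302b, miR-302d, miR-367, and miR-300 and miR-410 of the Dlk1-Dio3 locus.

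**Figure D1:**
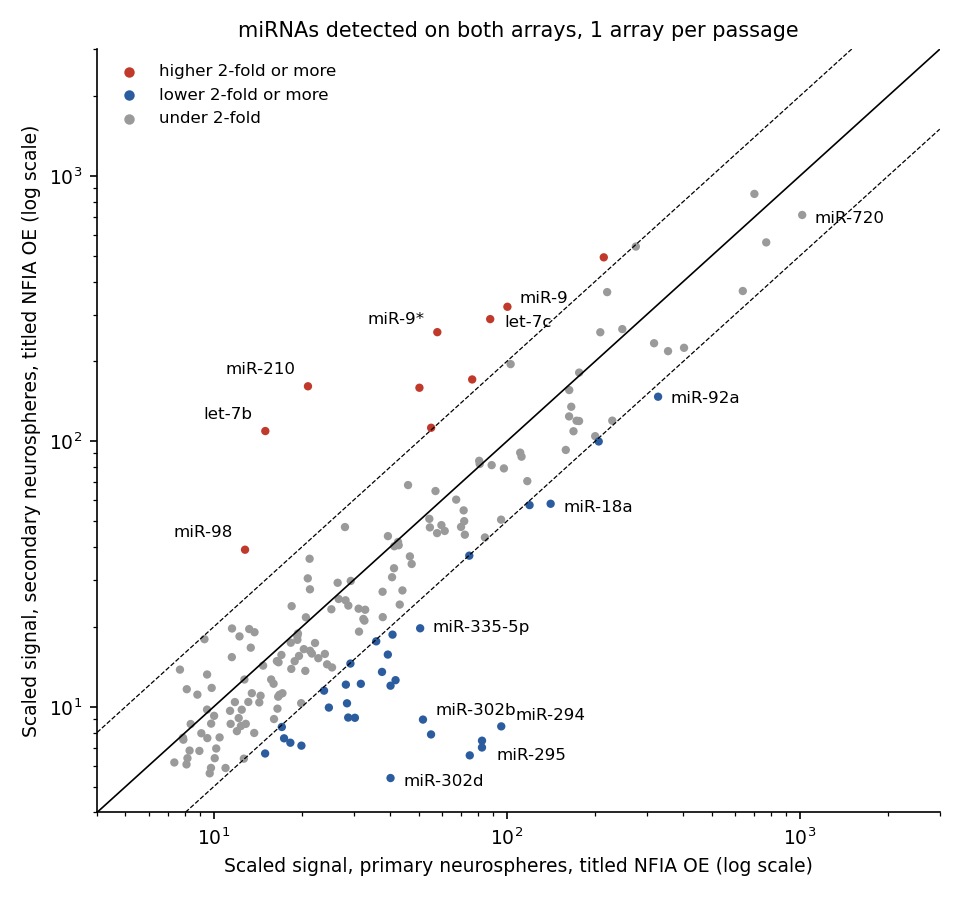
Scaled signal (75th percentile of the commonly detected probes = 100, log axes) of the 188 miRNAs detected on both arrays titled NFIA OE, primary on the x axis and secondary on the y axis. The solid line marks equal levels and the dashed lines 2-fold; 10 miRNAs lie on or above the upper line and 32 on or below the lower one.

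**Figure D2:**
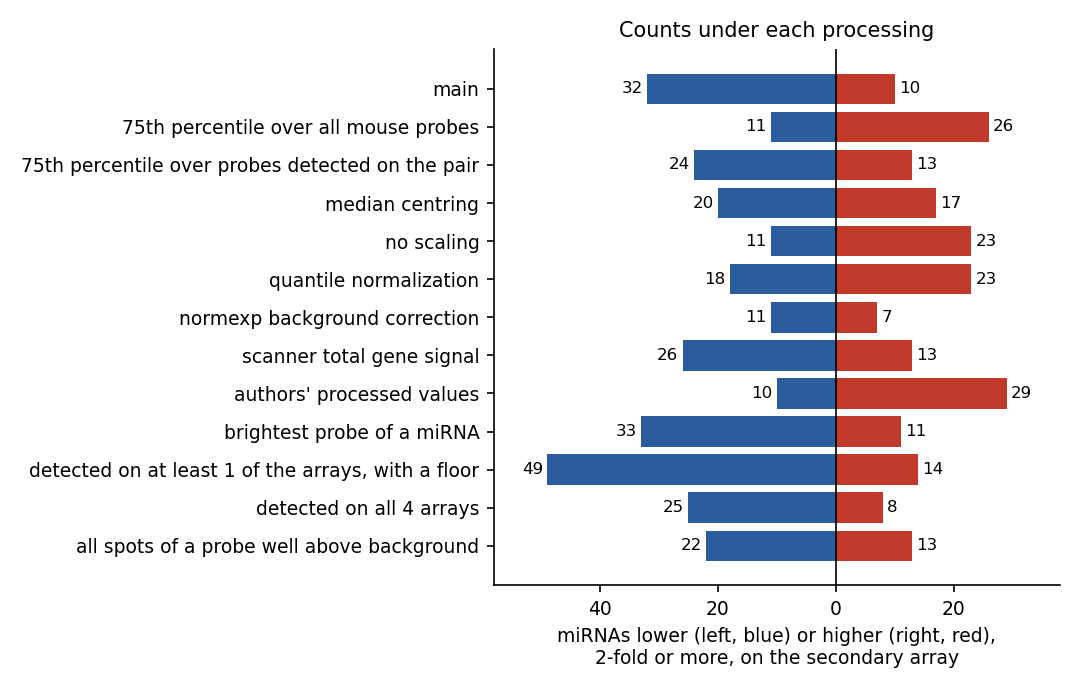
Number of miRNAs at least 2-fold lower (blue, left) or higher (red, right) on the secondary array under each processing, with the count beside each bar. The main processing gave 32 lower and 10 higher, and the authors' deposited values 10 lower and 29 higher.

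The let-7 family was higher in secondary neurospheres. All 9 members on the array (let-7a to let-7g, let-7i and miR-98) were detected on both arrays, and all 9 differences were above 0, with a median of 1.20 beside -0.39 for all measured miRNAs. Past 2-fold were 6 of the 9. Members of the family are close in sequence, and whether their probes share signal was not tested. All measured members also lay above 0 in each of the 12 alternatives, with medians between 0.99 and 1.85. The other scalings moved the median of all measured miRNAs up, so staying above 0 under them says little. let-7b had a scaled signal of 15.0 on the primary and 109 on the secondary array titled NFIA OE. On the arrays titled control it was not detected at passage 0 and read 130 at passage 1. The NFIA OE-titled difference was 7.29-fold (log2 2.87, spot SE 0.04). Its 2 probes gave 2.54 and 3.19, the widest spread between probes of any miRNA measured here.

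let-7c read 87.8 on the primary and 289 on the secondary array, a difference of 3.29-fold (log2 1.72, spot SE 0.03). On the arrays titled control it read 25.1 and 328, so that the primary arrays were further apart than the secondary arrays. let-7d read 50.3 and 159 (log2 1.66), miR-98 read 12.8 and 39.1 (log2 1.61), let-7f 214.3 and 493 (log2 1.20) and let-7i 76.2 and 171 (log2 1.17). Each of these was higher on both secondary arrays than on either primary array. let-7a and let-7g fell short of 2-fold under the main scaling, at 0.97 and 0.92. let-7e was the exception in the family, at 176.6 on the primary and 181.5 on the secondary array (log2 0.04, spot SE 0.03).

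The let-7 genes are spread over several chromosomes, some of them in pairs or trios. let-7c and let-7b lie within 1 kilobase on chromosome 15 (chr15:85706603-85707403, plus strand, GRCm38.p6), inside the long non-coding RNA gene Lncppara. let-7d, let-7f and let-7a share chr13:48536012-48538272 (minus strand) and differed by 1.66, 1.20 and 0.97. miR-98 and a second let-7f hairpin lie in the span of the protein-coding gene Huwe1 (chrX:151912346-151913321, plus strand). Another let-7c hairpin lies beside miR-99a (chr16:77598936-77599750, plus strand). miR-99a read 55.2 and 113, the miRNA just past 2-fold on the higher side (log2 1.03), and let-7a was the nearest below it. The array cannot tell which hairpin a mature miRNA came from.

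The other members of the miR-99/100 and miR-125 families, which are known to be transcribed with let-7 genes, were not past 2-fold. miR-125b-5p read 699 and 855 (log2 0.29), miR-100 read 39.3 and 44.0 (log2 0.16), and miR-99b read 44.1 and 27.4 (log2 -0.68). Of the 5 members, 3 were above 0 and 2 below, with a median of 0.16.

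miR-9 and miR-9*, which come from the same hairpins, were both higher in secondary neurospheres. miR-9 read 100 on the primary and 321 on the secondary array titled NFIA OE, and 110 and 457 on those titled control. Its difference was 3.20-fold (log2 1.68, spot SE 0.03), and its probes differed by less than 0.01. miR-9* read 57.9 and 258, against 55.6 and 459 on the arrays titled control, a difference of 4.45-fold (log2 2.15, spot SE 0.03). For both strands the primary arrays lay close together and the secondary array titled NFIA OE lay below the one titled control. The hairpins are on chromosomes 3, 7 and 13 (mature miR-9 at chr3:88215613-88215635, chr7:79505279-79505301 and chr13:83738821-83738843, all on the plus strand), each inside a long non-coding RNA gene.

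The rest of the neural list went both ways. This list holds miRNAs of neural progenitors and neurons, and 9 of its 14 members on the array were measured, 2 higher and 2 lower past 2-fold, with a median of 0.15. With all mouse probes setting the percentile and in the authors' deposited values, 7 of the 9 were above 0, 0 were past 2-fold lower, and the medians were 0.76 and 0.80. miR-124, the most specific miRNA of neurons, read 74.5 on the primary and 37.1 on the secondary array (log2 -1.01, spot SE 0.03), the miRNA just past 2-fold on the lower side. Just outside was miR-224, at -0.99. miR-7a, enriched in neurons and endocrine cells, read 40.8 and 18.7 (log2 -1.12). The difference of both was smaller in size under every other scaling that moved the median up, down to -0.36 for miR-124 and -0.42 for miR-7a. miR-153 read 69.8 and 47.6 (log2 -0.55), and miR-218 26.5 and 29.3 (log2 0.15). miR-129-5p (log2 0.59) and miR-129-3p (log2 0.38) were above 0, and miR-128 was at -0.42.

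miR-210, the miRNA most strongly induced by low oxygen through hypoxia-inducible factor, had the highest difference of all miRNAs measured at both passages. It read 21.0 on the primary and 161 on the secondary array titled NFIA OE, 7.69-fold (log2 2.94, spot SE 0.04). On the arrays titled control it read 46.3 and 203 (log2 2.13). Both secondary arrays were above both primary arrays, and the lowest of the 4 was the primary array titled NFIA OE. Over the alternatives its difference lay between 2.04, with normexp background correction, and 3.57, in the authors' deposited values. The mature sequence lies at chr7:141221407-141221428 on the minus strand, outside every protein-coding and long non-coding RNA gene of the RefSeq table.

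**Figure D3:**
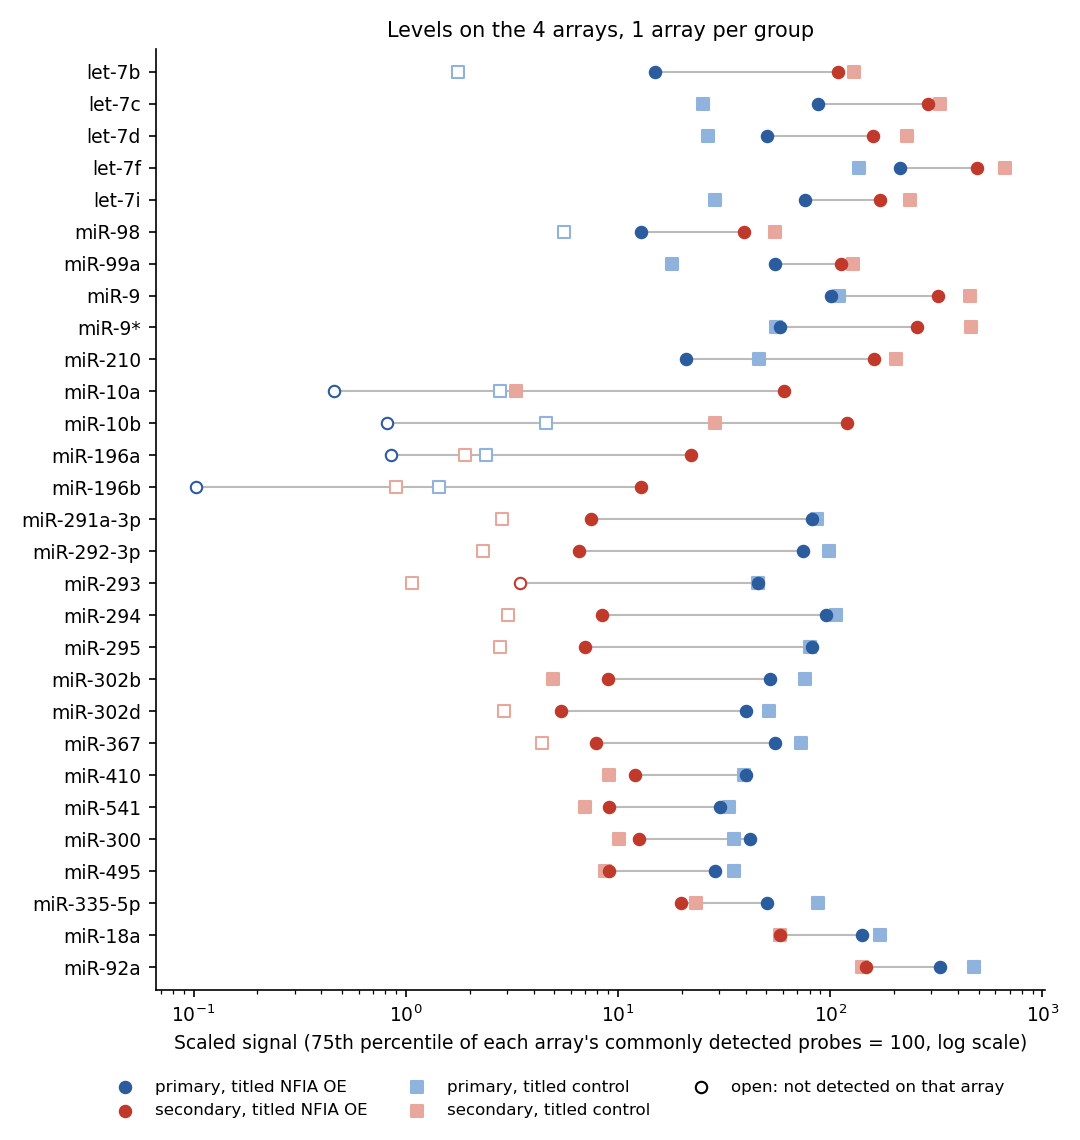
Scaled signal (log axis) of 29 named miRNAs on each of the 4 arrays, 1 array per group; circles are the arrays titled NFIA OE, squares those titled control, blue primary and red secondary, and open symbols mark arrays on which the miRNA was not detected. The grey line joins the 2 arrays compared; let-7b moves from 15.0 to 109 and miR-295 from 82.3 to 7.03.

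Hox cluster miRNAs were detected in secondary neurospheres alone. None of the 6 on the array (miR-10a, miR-10b, miR-196a, miR-196b, miR-615-5p and miR-615-3p) was detected on either primary array. On the secondary array titled NFIA OE 4 were detected, with a summed signal over detected probes of 504. On the secondary array titled control 2 were, with a sum of 69.3. Because the primary probes did not count as detected, folds are lower bounds. They are taken against the lowest detected signal of the primary array, 6.37, or the probe's own signal where that is higher.

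miR-10b read 120 on the secondary array titled NFIA OE, a mean on the log scale over its 2 probes, and 28.6 on the secondary array titled control, and was not detected on either primary array. It was thus at least 18.9-fold higher than on the primary array titled NFIA OE. Its 2 probes read 79.03 ± 1.80 and 184 ± 3.06 (spot SE, 10 spots each) on the secondary array, and -0.03 ± 0.42 and 1.67 ± 0.56 (9 spots each) on the primary array after background subtraction. miR-10a read 60.3 on the secondary array titled NFIA OE and was at least 9.46-fold higher. On the secondary array titled control only 1 of its 2 probes was detected, at 6.44, where that probe read 97.8 on the array titled NFIA OE. miR-196a read 22.2, with all 4 of its probes detected at 13.2 to 29.8, and was at least 3.48-fold higher. miR-196b read 12.8 in its 1 detected probe and was at least 2.01-fold higher. miR-196a and miR-196b were not detected on the secondary array titled control, so these 2 were detected on 1 of the 4 arrays. The members of each seed pair are close in sequence, and whether their probes share signal was not tested. Over 6 alternative scalings and background corrections the bounds stayed above 1, between 4.77-fold and 29.0-fold for miR-10b, 2.69-fold and 14.5-fold for miR-10a, 1.37-fold and 5.37-fold for miR-196a and 1.01-fold and 3.16-fold for miR-196b.

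The 4 miRNAs have genes in all of the Hox clusters, A to D. miR-10b lies in the spans of Hoxd3 and Hoxd4 (chr2:74726074-74726096, plus strand), and miR-10a in that of Hoxb3 (chr11:96317186-96317208, plus strand). miR-196a has 2 hairpins, one in the same cluster as miR-10a, near Hoxb8 and Hoxb9 on chromosome 11 (chr11:96265187-96265208) and among Hoxc8 to Hoxc11 on chromosome 15 (chr15:102973365-102973386). miR-196b lies within 20 kilobases of Hoxa7, Hoxa9 and Hoxa10 (chr6:52230129-52230150, minus strand). No Hox messenger RNA was measured on these arrays.

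The miR-290 to miR-295 cluster of pluripotent cells had the lowest differences of all. Of 14 members on the array, 6 were detected in primary and 4 in secondary neurospheres titled NFIA OE. On the secondary array titled control 0 of the 14 were. All 4 measured members were past 2-fold lower, with a median of -3.51 that lay between -3.49 and -2.06 in the alternatives that measured them. miR-295 read 82.3 on the primary and 7.03 on the secondary array, 11.7-fold lower (log2 -3.55, spot SE 0.06). miR-294 read 95.7 and 8.44 (11.3-fold, log2 -3.50), and miR-291a-3p 82.3 and 7.45 (11.04-fold, log2 -3.47). miR-292-3p read 74.8 and 6.56 (log2 -3.51). On the primary array titled control the 4 read 80.1 to 106. Thus the primary arrays were close together, and the secondary array titled NFIA OE lay a little above its lowest detected signal of 5.17, where a fold is less certain. miR-293 was detected on the primary array alone, at 45.9, and was at least 8.88-fold higher there, with bounds between 3.01-fold and 8.10-fold in 6 alternatives. miR-290-5p was at least 2.03-fold higher on the primary array.

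The miR-302 to miR-367 cluster, on chromosome 3 within the span of Larp7 (chr3:127545228-127545807, plus strand), was lower as well. It had 5 of 8 members detected in primary and 3 in secondary neurospheres, and all 3 measured members were past 2-fold lower in the main processing and in each alternative that measured them. miR-302b read 51.8 and 8.95 (5.78-fold lower, log2 -2.53, spot SE 0.07), and on the arrays titled control 76.0 and 4.95. miR-302d read 40.1 and 5.39 (log2 -2.90), and miR-367 55.2 and 7.87 (log2 -2.81). The secondary signals of these miRNAs lay near that array's lowest detected signal of 5.17, where a fold is less certain. With normexp background correction the differences were -1.49 for miR-302b, -1.44 for miR-302d and -1.58 for miR-367. miR-302a was at least 3.48-fold higher on the primary array and undetected on the secondary, with bounds between 1.85-fold and 3.17-fold in the alternatives. Summed over detected probes, the 2 pluripotency lists together went from 770 (miR-290 to miR-295) and 288 (miR-302 to miR-367) on the primary array to 46.1 and 30.2 on the secondary. In RNA from a whole sorted population, fewer cells of a type and less of an RNA per cell cannot be told apart. These pluripotency markers move with passage, as do the differences described here, and their part in the other differences was not tested.

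The seed AAGUGCU printed above links both clusters. All 5 measured miRNAs with this seed were past 2-fold lower, with a median of -3.47. By contrast, the 5 measured miRNAs whose seed is AAAGUGC (miR-17, miR-20a, miR-20b, miR-93 and miR-106b) had a median of -0.94, and 1 was past 2-fold. With the seed AUUGCAC 5 were measured, miR-367 at -2.81, miR-92a at -1.16, miR-25 at -1.06, miR-32 at -0.57 and miR-92b at -0.39.

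The miR-17 paralogue clusters, which promote growth and division of progenitor cells, were lower as a group by a smaller step. Of 20 members, 12 were measured, all 12 below 0 in the main processing and in each alternative, with a median of -0.95. Of all 188 measured miRNAs 144 were below 0, with a median of -0.39, so the group's median was -0.56 relative to theirs. In the main processing 5 of the 12 were past 2-fold lower, beside 17% of all measured miRNAs. The number was 0 when all probes set the percentile, without scaling and in the authors' deposited values. There the medians of the 12 were -0.33, -0.45 and -0.29. miR-18a read 141 on the primary and 58.2 on the secondary array titled NFIA OE, and 172 and 58.1 on those titled control (log2 -1.28, spot SE 0.03). miR-92a read 328 and 147 (log2 -1.16), miR-19a 206 and 99.9 (log2 -1.04) and miR-19b 639 and 368 (log2 -0.79). The 8 measured strands of the miR-17 to 92a polycistron (chr14:115043671-115044506, plus strand) lay between -1.28 and -0.79. miR-363, of the paralogue cluster on the X chromosome, was detected in primary neurospheres alone and was at least 2.64-fold higher there.

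The Dlk1-Dio3 locus held the most miRNAs that were lower. Of its 74 names on the array, 35 were detected on the primary and 17 on the secondary array, and 18 were detected on the primary array alone. All 17 measured at both passages were below 0, with a median of -1.32, and 15 were past 2-fold lower. Over all 188 measured miRNAs, 144 were below 0, the median was -0.39 and 32 (17%) were past 2-fold lower. In all, 32 miRNAs were detected on the primary array alone. The 17 of the locus stayed below 0 in every alternative that measured them except the authors' deposited values, where 1 was above 0. The number past 2-fold there was 3, and it was 4 when all probes set the percentile and 2 after normexp background correction. miR-410 read 40.1 on the primary and 12.0 on the secondary array titled NFIA OE, and 39.4 and 9.05 on those titled control (3.34-fold lower, log2 -1.74, spot SE 0.05). miR-541 read 30.3 and 9.09 (log2 -1.74), miR-300 41.7 and 12.6 (log2 -1.73), miR-495 28.8 and 9.11 (log2 -1.66), miR-376c 19.9 and 7.14 (log2 -1.48), and miR-127 31.8 and 12.2 (log2 -1.38). In each case both secondary arrays were below both primary arrays. Those detected on the primary array alone had bounds from 1.45-fold (miR-136*) to 3.33-fold (miR-431), with 3.30-fold for miR-433 and 2.66-fold for miR-543. In the alternatives the bounds of miR-431, miR-433 and miR-543 were lower, down to 1.83-fold, 1.77-fold and 1.65-fold.

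Position within the locus did not separate the values widely. Members of the distal cluster (chr12:109709060-109747960, plus strand) numbered 11, with a median of -1.47. The 3 measured in the proximal cluster around Rtl1 (chr12:109563692-109595388) had differences of -1.38 (miR-127), -1.02 (miR-434-3p) and -0.95 (miR-136). miR-494 was the least changed of the 17, at 32.7 and 21.1 (log2 -0.63). The imprinted gene Mest holds miR-335 on chromosome 6 (chr6:30741314-30741336, plus strand). miR-335-5p, which is processed from this gene's transcript, read 50.6 and 19.8 (2.56-fold lower, log2 -1.36), and 87.5 and 23.4 on the arrays titled control.

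**Figure D4:**
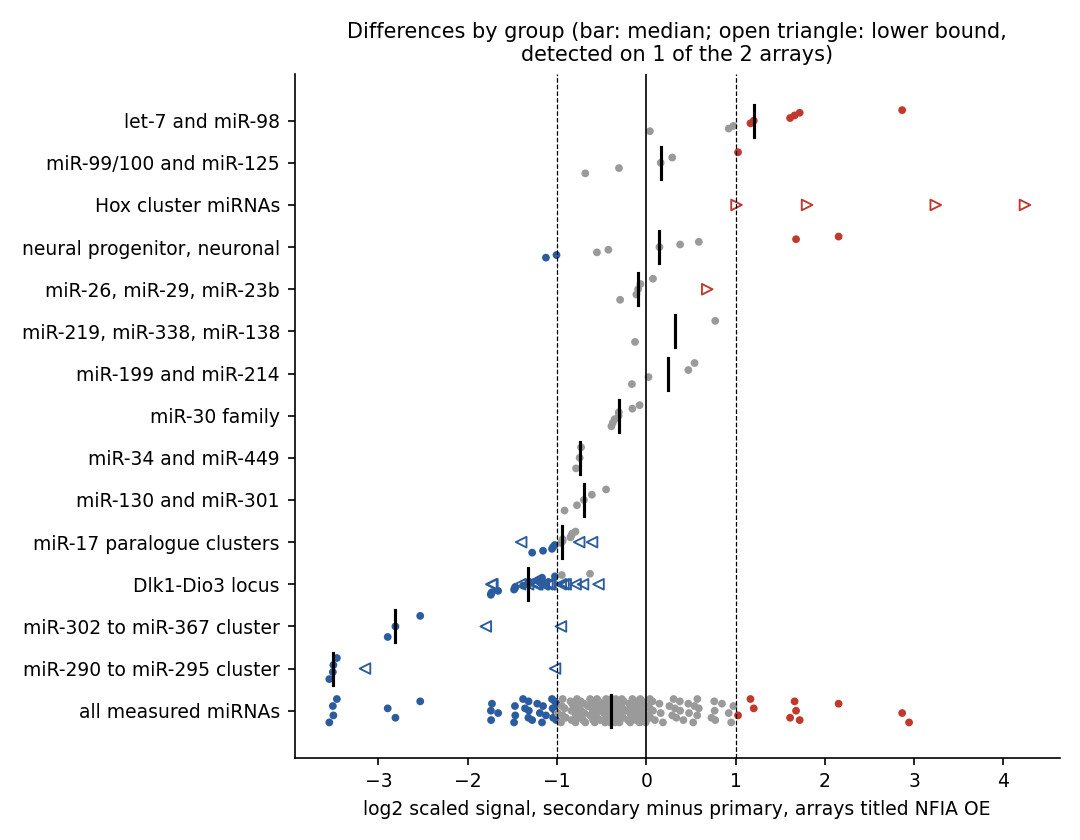
Difference in log2 scaled signal, secondary minus primary, for the miRNAs of 14 groups and, in the bottom row, all 188 measured; each point is 1 miRNA, the bar is the median, dashed lines mark 2-fold, and open triangles are lower bounds for miRNAs detected on 1 of the 2 arrays. The let-7 points have a median of 1.20, the miR-290 to miR-295 points one of -3.51, and the Hox cluster miRNAs have bounds only.

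Of the miRNAs enriched in glia, those of astrocytes differed little, and 0 were past 2-fold in the main processing. Of 6 names in the miR-26 and miR-29 families and miR-23b, which are enriched in astrocytes, 5 were measured and 0 were past 2-fold. Their differences ran from -0.29 (miR-26b, at 111 and 90.7) to 0.07 (miR-29c, at 20.6 and 21.7). Their median, -0.09 in the main processing, was above 0 under 7 of the 12 alternatives. miR-29a was detected in secondary neurospheres alone, at 10.2, and was at least 1.60-fold higher, a bound that fell to 0.95 with normexp background correction, so that no fold can be given there. miR-219, known from oligodendrocyte maturation, read 88.8 and 81.4 (log2 -0.13), and miR-338-3p 11.6 and 19.7 (log2 0.77, spot SE 0.06). The miR-338-3p difference lay between 0.08 and 1.41 in the alternatives and was past 2-fold in 5 of 11. miR-21, induced in reactive astrocytes and in many proliferating cells, read 220 and 365 (log2 0.73, spot SE 0.03) and was above 0 in all 12 alternatives and past 2-fold in 3.

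Among the further families listed here, 0 members were past 2-fold in the main processing. Over all measured miRNAs, 144 of 188 were below 0, with a median of -0.39. The 3 measured members of the miR-34 family, targets of p53, were all below 0 in each processing, from -0.79 (miR-34c) to -0.73 (miR-34a). The 5 of miR-130 and miR-301 had a median of -0.70, with miR-301b at -0.92. The 7 of the miR-30 family lay between -0.39 and -0.07 and were all above 0 when all probes set the percentile, without scaling and in the authors' deposited values. The miR-181, miR-15/16 and Sfmbt2-locus groups had medians of -0.04, -0.06 and -0.26, turned sign in these 3 processings among others. miR-27a read 28.1 and 47.5 (log2 0.76) and was past 2-fold in 5 of 12 alternatives. miR-582-5p, of no family above and among the 12 highest, read 9.30 and 17.98 (log2 0.95). It lay between 0.11, with normexp background correction, and 1.60, in the authors' deposited values, and was past 2-fold in 8 of 12 alternatives.

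Markers of most other cell types were not detected, apart from the miR-199 and miR-214 group and a few dim miRNAs of the primary array. None of 8 names of the epithelial miR-200 list, of 10 of the mesenchymal, muscle and endothelial list, and of 4 of the endoderm and liver list was detected on either array titled NFIA OE. In the haematopoietic list of 8, miR-155 alone was detected, on the primary array at 8.39. The sensory miRNAs miR-96 and miR-183 were detected on the primary array alone, miR-96 at 15.7 with a bound of 3.04-fold (1.72-fold to 2.78-fold in the alternatives). The miR-199 and miR-214 group, best known from mesenchymal cells, had 4 of 5 names measured. miR-199a-3p read 80.8 and 82.2 (log2 0.02), miR-199a-5p 20.9 and 30.5 (log2 0.54), and miR-214 13.8 and 19.1 (log2 0.47). Summed over detected probes this group reached 276 and 296 on the arrays titled NFIA OE against 60.4 and 41.7 on those titled control. The sums cover 4 names detected on each array titled NFIA OE and 2 on each array titled control. The summed level thus differed between titles, and titled NFIA OE it hardly differed with passage. Over the 2 names measured on all 4 arrays the median passage difference was 0.02 titled NFIA OE and -0.46 titled control. The part of this group in the other passage differences was not tested.

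Under the main scaling, the passage difference was larger in cells titled control than in those titled NFIA OE for most miRNAs past 2-fold. The pairs were compared under this scaling alone. Its percentiles, primary and secondary, were 261 and 369 titled NFIA OE and 167 and 443 titled control. Without scaling the pairs would thus shift by different amounts, and the sizes and counts below would change. The pairs share no array, but at each passage both came from 1 mixed culture. Over the 153 miRNAs detected on all 4 arrays, the differences in the pairs were correlated (Pearson's r = 0.893, Spearman's rho = 0.836, taken across miRNAs, which are no replicates of each other and share the 4 scalings). The medians were -0.40 titled NFIA OE and -0.41 titled control, and the SDs 0.76 and 1.16. Signs were shared by 126. Past 2-fold were 33 in the NFIA OE pair and 57 in the control pair, and 32 were past it the same way in both, 97.0% of the first list and 56.1% of the second. The exception was miR-674, at -1.05 titled NFIA OE and -0.33 titled control. Measured on its own detected miRNAs, the control pair had 16 of 160 higher (10%) and 41 lower (25.6%), together 35.6%.

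The largest departures from the control pair were those of let-7 members and miR-99a, which differed less titled NFIA OE. let-7c differed by 1.72 titled NFIA OE and 3.71 titled control, let-7i by 1.17 and 3.06, let-7d by 1.66 and 3.11, and miR-322 by 0.31 and 1.69. For miR-99a (1.08 and 2.70) and miR-100 (0.34 and 1.59) the pairs are compared over 1 probe, the one detected on all 4 arrays. On the primary array titled NFIA OE let-7c, let-7i and miR-322 read 87.8, 76.2 and 208, and on the primary array titled control 25.1, 28.6 and 76.0. On the secondary arrays the same 3 read 289, 171 and 258 titled NFIA OE and 328, 238 and 245 titled control. For these 3 the primary arrays were thus further apart than the secondary arrays. In the other direction, miR-302b differed by -2.53 and -3.94, miR-92b by -0.39 and -1.71 and miR-218 by 0.15 and -0.91. On the secondary array titled control miR-302b read 4.95, the lowest detected signal of that array, where a fold is less certain. Under the main scaling, 5 of the 33 miRNAs past 2-fold in the NFIA OE pair had a smaller difference in the control pair. Among them were miR-210 (2.94 against 2.13) and miR-376a (-1.47 against -1.27). Whether the differences between the pairs exceed the spread between cultures cannot be tested with 1 array each.

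**Figure D5:**
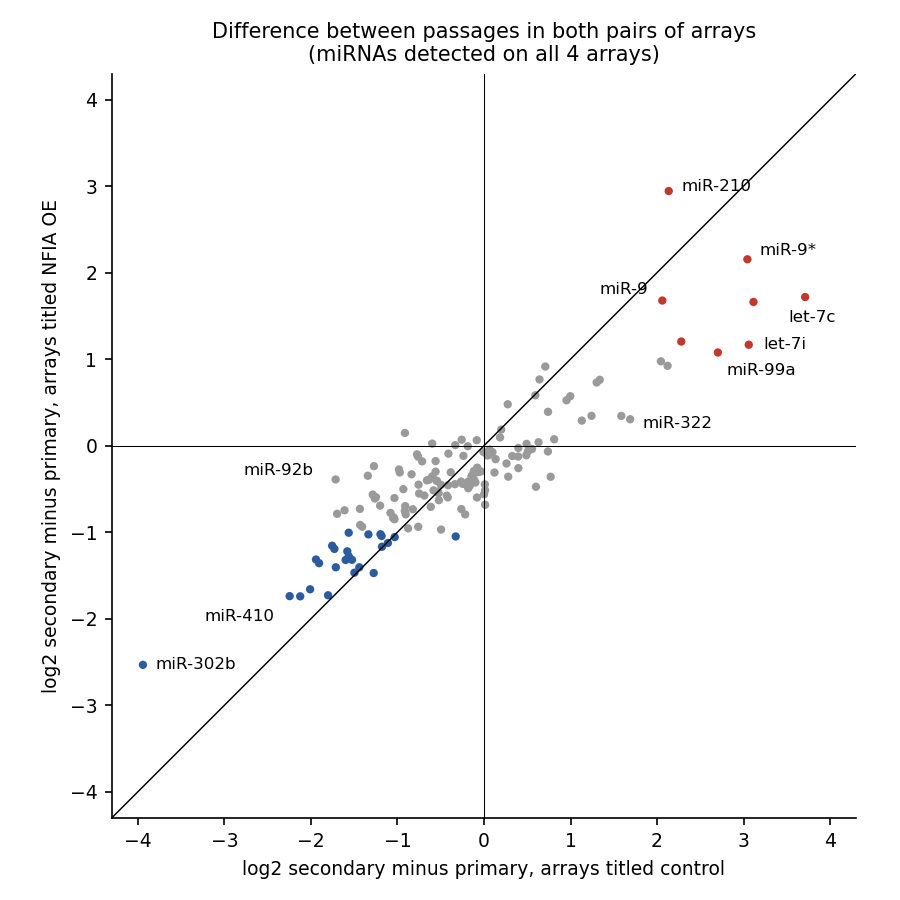
Difference in log2 scaled signal between passages for the 153 miRNAs detected on all 4 arrays, arrays titled control on the x axis and titled NFIA OE on the y axis; colours mark miRNAs past 2-fold in the NFIA OE pair and the diagonal marks equal differences. let-7c lies below the diagonal at 3.71 and 1.72, and miR-210 above it at 2.13 and 2.94.

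Agreement between probes set the technical precision. Of the measured miRNAs, 130 had at least 2 detected probes, whose differences were apart by a median of 0.05 and by at most 0.66. In 8 of them the probes had opposite signs. Of the 42 miRNAs past 2-fold, 25 had at least 2 probes and in 24 of these every probe was past it, while 17 rested on 1 probe. The spot SE had a median of 0.05, and the largest, 0.27, was that of miR-139-3p (log2 -1.01). Across the 151 measured miRNAs with a RefSeq sequence, the difference was uncorrelated with GC content (r = 0.00049), and across all 188 weakly correlated with mean level (r = 0.18). The 16 measured miRNAs named as passenger strands with an asterisk had a median of -0.48, with 1 higher (miR-9*) and 2 lower past 2-fold.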

How the data were processed

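Arrays were 1-colour Agilent mouse miRNA arrays, 1 per group (n = 1). Intensity per spot was extracted with Feature Extraction 10.5.1.1 (background-subtracted, linear), per the file headers. Whether a spot was well above background is the scanner's flag, per the file headers. A table of the authors' processed values, 1 linear intensity per miRNA, was deposited too. Each of its columns is the total gene signal of that array over a constant, with neither log nor centring, and its column medians were 0.830 (primary) and 0.816 (secondary) for the arrays titled NFIA OE.

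Outlier-flagged spots were left out, spots averaged per probe, and each array scaled to its 75th percentile over mouse probes detected on all 4 arrays. A miRNA is the mean log2 over probes detected on both arrays. One-sided miRNAs have lower bounds. No test was run; counts use a 2-fold threshold. Normexp correction (offset 50) used limma 3.58.1 in R 4.3.3, and the rest Python 3.11.15 with pandas 2.3.3. The recovery of known differences was tested on simulated data after taking out the median error. That test thus does not cover the offset set by the scaling, detection or the lower bounds. RefSeq sequences were matched by name for 300 of 611 miRNAs.

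The members and lists were chosen with earlier results of these data known. Named miRNAs are the 12 highest and 12 lowest, up to 6 one-sided each way, list extremes, those departing most from the control pair, the brightest, seed relatives, those nearest 2-fold, and 15 set names; others named in a list's account were added after their values were seen.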

Additional observations from a re-analysis of the deposited data

Results flagged for a closer look

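Under the main scaling, the difference between passages had opposite signs in the pair of arrays titled NFIA OE and in the pair titled control for 8 of the named miRNAs. The difference between the pairs was not tested, since each has 1 array a group. miR-218 was at 0.15 titled NFIA OE and -0.91 titled control, miR-99b at -0.68 and 0.01, miR-199a-3p at 0.024 and -0.60, miR-32 at -0.56 and 0.0011, and miR-720 at -0.51 and 0.01. The others were miR-199b* at 0.0069 and -0.33 over the probe detected on all 4 arrays, miR-135a at 0.069 and -0.26 and miR-30d at -0.075 and 0.098. Over both of its probes miR-199b* was at -0.16 titled NFIA OE, the same sign as titled control, so its opposite sign rests on 1 probe. No difference among the 8 reached 2-fold in either pair under the main scaling. With the 75th percentile over all mouse probes the NFIA OE-titled differences of miR-30d, miR-720 and miR-32 were above 0, and with normexp background correction that of miR-218 was at -0.03. The control-titled differences of the 8 were calculated under the main scaling alone. Its percentiles, primary and secondary, were 261 and 369 titled NFIA OE and 167 and 443 titled control. Without scaling the pairs would shift by different amounts, so the opposite signs hold for the main scaling only.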

How the results depend on the processing

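The counts past 2-fold depended on the scaling. Against 10 higher and 32 lower, there were 26 and 11 with the 75th percentile over all mouse probes, 17 and 20 with median centring, 23 and 11 with no scaling, 23 and 18 with quantile normalization and 29 and 10 in the authors' deposited values. With normexp background correction 11 were lower, and with miRNAs detected on at least 1 of the arrays set to a floor, 49 were lower of 239. At 1.5-fold the counts were 19 and 65, at 4-fold 3 and 7, and measured from the median difference 18 and 14. A scaling by 1 factor per array adds the same constant to every difference, which by construction moves miRNAs across the threshold on both sides. The cause of the change with normexp was not tested. The remaining alternatives kept both counts within 1.5 times. Of 73 named miRNAs measured at both passages, 52 kept their sign in every alternative. No paired analysis was possible because each group has 1 array, and for the same reason no replicate could be left out. Signals near the lowest detected level, 6.37 on the primary and 5.17 on the secondary array, limit the folds of the miRNAs that were dim on 1 side.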
